A study of Homo sapiens with 3 samples.

Results

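Small nucleolar RNA (snoRNA) host genes are transcribed genes whose introns carry snoRNAs. The 10 described here, SNHG1, SNHG5, SNHG6, SNHG7, SNHG8, SNHG12, SNHG15, SNHG16, GAS5 and ZFAS1, were picked by symbol, and all 10 were among the 13479 gene entries of the deposited table. Every one had a mean of at least 5 CPM, counts of tags scaled to the size of the library, as had 10788 entries in all. The libraries came from EBC-1, a human lung squamous cell carcinoma line, given 600 pmol siRNA by electroporation. The groups were RAB11A siRNA 1, RAB11A siRNA 2 and a negative control siRNA, with 1 library each, all labelled with 72 h after plating. RAB11A is a small GTPase of recycling endosomes. No group was replicated, so every difference here has no replicate check, and intervals cover counting error only. The libraries were made by CAGE, which tags the capped 5′ ends of RNAs, so a value counts transcription starts and is not scaled by transcript length. In such bulk samples fewer cells that use a gene and less RNA per cell cannot be told apart.

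In a host gene the spliced exons and the intronic snoRNAs come from the same primary transcript. After splicing, the intron is trimmed to a snoRNA, which joins proteins into a snoRNP. Box C/D snoRNAs guide ribose methylation of ribosomal RNA, and box H/ACA snoRNAs guide conversion of uridine to pseudouridine. Trimmed snoRNAs mostly lack the cap of messenger RNA, so CAGE reads the start of the host. Most of these hosts encode no known protein. Many have a terminal oligopyrimidine (TOP) start, a C followed by a run of C and T, which they share with ribosomal protein genes. Translation of TOP RNAs depends on mTORC1 signalling. Spliced host RNAs such as GAS5 are degraded by nonsense-mediated decay (NMD) when they are translated, and GAS5 accumulates in cells whose growth is arrested.

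By RefSeq the 10 genes hold 36 snoRNAs. SNHG1 holds 8, SNHG16 and ZFAS1 hold 3 each, SNHG5 holds 2 and SNHG6 holds 1, all of them box C/D. SNHG7 holds 2, and SNHG8 and SNHG15 hold 1 each, all of them box H/ACA. SNHG12 holds 1 box C/D and 3 box H/ACA snoRNAs, and GAS5 holds 10 box C/D and 1 box H/ACA. The table gives each host by Ensembl identifier, and GENCODE annotation on GRCh37 types all 10 as lncRNA. On that build SNHG5 (ENSG00000203875) spans chr6:86360209-86388650 on the minus strand. ZFAS1 (ENSG00000177410) spans chr20:47894715-47916137 on the plus strand. SNHG8 (ENSG00000269893) spans chr4:119199858-119206471 on the plus strand, and SNHG16 (ENSG00000163597) spans chr17:74553809-74667067 on the plus strand. SNHG1 (ENSG00000255717) spans chr11:62619450-62623425, SNHG7 (ENSG00000233016) spans chr9:139615818-139622636, and SNHG15 (ENSG00000232956) spans chr7:45022618-45026560, all on the minus strand. SNHG12 (ENSG00000197989) spans chr1:28905050-28909644 and GAS5 (ENSG00000234741) spans chr1:173827697-173838020, both on the minus strand. SNHG6 (ENSG00000245910) is also a minus strand gene.

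The start regions are shown because the hosts resemble each other there. Each window holds 45 bases before the RefSeq start and 25 bases from it, on GRCh38.p14, with the start base as position 1. Capitals mark TATAA, or its reverse complement TTATA, beginning 25 to 40 bases before the start. They also mark a C followed by at least 4 letters that are each C or T, with that C within 10 bases of the start. The windows are chr6:85678709-85678778 for SNHG5, chr20:49278597-49278666 for ZFAS1, chr4:118278717-118278786 for SNHG8, chr9:136728160-136728229 for SNHG7, chr1:28581849-28581918 for SNHG12, chr17:76557719-76557788 for SNHG16, chr11:62855861-62855930 for SNHG1 and chr1:173869021-173869090 for GAS5, on the strands given above. SNHG6 and SNHG15 are named only.
SNHG5: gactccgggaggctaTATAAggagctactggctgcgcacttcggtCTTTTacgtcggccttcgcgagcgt
ZFAS1: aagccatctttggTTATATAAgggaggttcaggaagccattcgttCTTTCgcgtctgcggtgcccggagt
SNHG8: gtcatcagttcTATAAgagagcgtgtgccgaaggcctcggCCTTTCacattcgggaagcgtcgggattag
SNHG7: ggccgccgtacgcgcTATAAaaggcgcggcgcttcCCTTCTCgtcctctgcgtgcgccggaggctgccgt
SNHG12: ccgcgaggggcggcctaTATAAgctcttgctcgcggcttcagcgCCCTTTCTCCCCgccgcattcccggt
SNHG16: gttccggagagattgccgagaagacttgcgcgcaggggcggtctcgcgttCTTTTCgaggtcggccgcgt
SNHG1: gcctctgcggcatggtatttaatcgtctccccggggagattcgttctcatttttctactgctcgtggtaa
GAS5: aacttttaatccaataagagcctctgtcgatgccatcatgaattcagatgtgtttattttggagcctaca

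SNHG5 and ZFAS1 had the same layout, with a run of C and T opening exactly at the annotated start and TATAA or TTATA beginning 30 and 32 bases before it. Both patterns occurred in 5 of the 8 hosts with a RefSeq promoter entry, SNHG5, ZFAS1, SNHG8, SNHG7 and SNHG12. The run of C and T alone occurred in 6 of 8, SNHG16 included. Over all 27305 RefSeq promoters, TATAA or TTATA in that window occurred in 4.79%, the run of C and T in 33.3% and both in 1.59%. Of 63 ribosomal protein genes with an entry, 56 had the run, 8 had TATAA or TTATA and 8 had both. Among 8 other noncoding snoRNA hosts in the table, 4 had the run and 0 had TATAA or TTATA. These matches are descriptions of letters, and no match says only that the letters are absent from the window.

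The RefSeq start of GAS5 held neither pattern, but most GENCODE transcripts of GAS5 start elsewhere. Of 91 transcripts, 50 start at the same base, which lies within chr1:173837103-173837172 of GRCh37 on the minus strand. That window, with the same capitals, is printed because the first 50 bases of the transcripts that start in it match another locus.
GAS5 most common start: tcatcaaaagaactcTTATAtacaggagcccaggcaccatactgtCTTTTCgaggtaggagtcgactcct

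The first 50 bases of the transcripts that start there match chr6:90430874-90430923 on the plus strand with 0 mismatches. The search used transcript sequences, and as an unbroken stretch with at most 2 mismatches these bases were not found at the GAS5 locus itself. Over all GAS5 transcripts, 80 of 91 begin with 50 bases that match another place in the genome with at most 2 mismatches. The sources used here do not give how reads with several matches were handled, so the level of GAS5 is uncertain. The most common start of each of the other 9 hosts had no such match elsewhere. Less common starts did in SNHG5 (1 of 17), SNHG7 (2 of 6) and SNHG12 (3 of 13).

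SNHG5, a box C/D host, was the most abundant of the 10 in every library, at 937 CPM with siRNA 1, 1126 CPM with siRNA 2 and 1291 CPM with control siRNA. ZFAS1, a box C/D host that starts next to the ZNFX1 gene, stood at 239 CPM with siRNA 1, 326 CPM with siRNA 2 and 482 CPM in control. Both genes were lowest with siRNA 1 and highest in control. SNHG8, the host of SNORA24, stood at 351 and 335 CPM in the siRNA libraries and at 293 CPM in control, so it was highest with siRNA 1. SNHG16, which holds 3 box C/D snoRNAs, had 264 CPM with siRNA 1, 231 CPM with siRNA 2 and 248 CPM in control. SNHG6, the host of SNORD87, had 181 CPM with siRNA 1, 235 CPM with siRNA 2 and 194 CPM in control. In SNHG16 and SNHG6 control lay between the siRNA libraries.

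SNHG15, the host of SNORA9, was nearly level at 128, 127 and 126 CPM with siRNA 1, siRNA 2 and control. SNHG7, the host of SNORA17A and SNORA17B, had 70.7 CPM with siRNA 1, 85.9 CPM with siRNA 2 and 84.5 CPM in control. SNHG1, known first as the host of SNORD22, had 44.6 and 41.9 CPM in the siRNA libraries and 50.4 CPM in control. The lowest values were those of GAS5 and SNHG12. GAS5 had 26.1 CPM with siRNA 1, 19.9 CPM with siRNA 2 and 20.2 CPM in control. SNHG12 had 6.92, 5.44 and 4.84 CPM with siRNA 1, siRNA 2 and control, which rest on 173, 136 and 121 tags.

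From high to low, the order in control was SNHG5, ZFAS1, SNHG8, SNHG16, SNHG6, SNHG15, SNHG7, SNHG1, GAS5 and SNHG12. The 95% Poisson intervals of no neighbours in that order overlapped. With siRNA 1, ZFAS1 stood in 4th place, behind SNHG8 and SNHG16, and again no neighbours overlapped. With siRNA 2, SNHG8 and ZFAS1 overlapped in 2nd and 3rd place, and SNHG6 and SNHG16 overlapped in 4th and 5th. SNHG5 was 1st, and SNHG15, SNHG7, SNHG1, GAS5 and SNHG12 were 6th to 10th, in all 3 libraries.

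**Figure D1:**
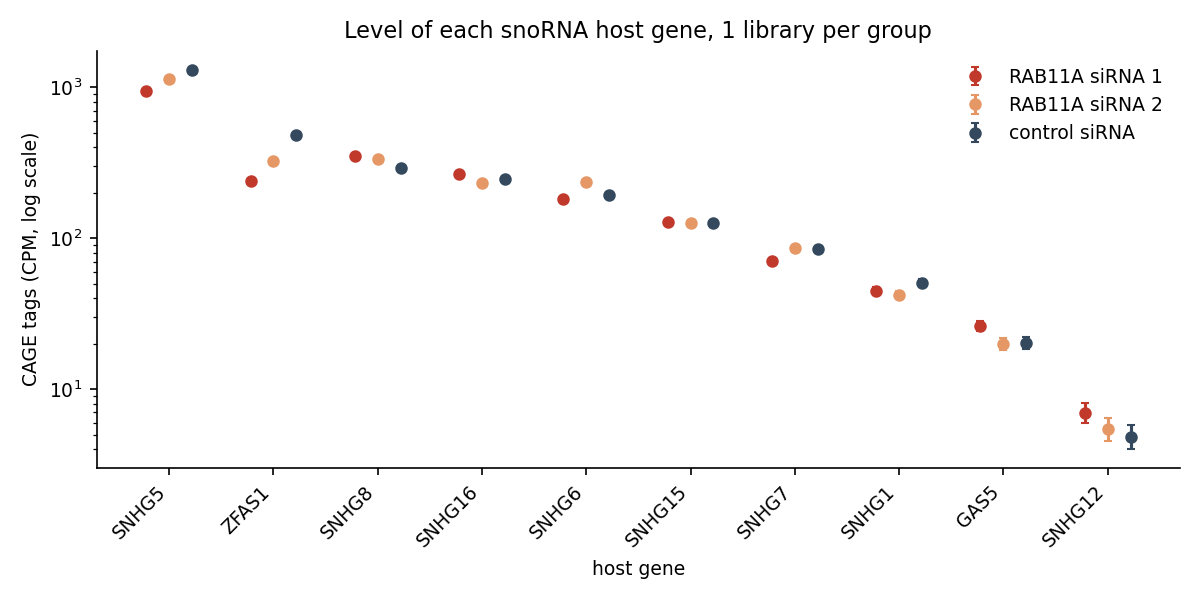
CAGE level of each host gene in CPM (log axis) in the RAB11A siRNA 1, RAB11A siRNA 2 and control siRNA libraries, 1 library each, with bars for the 95% Poisson interval of the tags. ZFAS1 stands at 239 and 326 CPM in the siRNA libraries and at 482 CPM in control, while SNHG15 lies between 126 and 128 CPM.

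In RAB11A siRNA 1 cells ZFAS1 was at 49.6% of its control level (95% counting interval 48.1 to 51.2%) and SNHG5 was at 72.6% (71.4 to 73.8%). SNHG12 was at 143% (113 to 182%), GAS5 at 129% (115 to 146%) and SNHG8 at 120% (116 to 124%). On the log2 scale of CPM with a pseudocount of 1 CPM, ZFAS1 was at -1.01 (counting SE 0.023), which is 2.01-fold lower. It was the only host at least 2-fold lower, where 0.519% of all 10788 entries were, and 0 hosts were at least 2-fold higher, where 0.371% were. ZFAS1 sits at that threshold, since a pseudocount of 5 CPM or either other scaling of the libraries left 0 hosts past it. SNHG5 was at -0.46 (SE 0.012), SNHG7 at -0.25 (SE 0.046), SNHG1 at -0.17 (SE 0.058) and SNHG6 at -0.10 (SE 0.030). SNHG12 was at 0.44 (SE 0.14), GAS5 at 0.36 (SE 0.082), SNHG8 at 0.26 (SE 0.023) and SNHG16 at 0.09 (SE 0.025). SNHG15 was at 0.03 (SE 0.036), and it was the only host whose interval held 100% of control, from 96.9 to 107%.

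In RAB11A siRNA 2 cells ZFAS1 was again lowest relative to control, at 67.7% (65.8 to 69.6%), a log2 ratio of -0.56 (SE 0.021). SNHG1 stood at 83.1% (76.5 to 90.3%) and SNHG5 at 87.2% (85.8 to 88.6%), log2 ratios of -0.26 and -0.20. SNHG16 was at 93.4% (90.1 to 96.8%), a log2 ratio of -0.10, but under both other scalings it was at -0.05 with an interval that held 0. SNHG6 was the highest, at 121% (116 to 126%) and a log2 ratio of 0.27, followed by SNHG8 at 114% (111 to 118%) and 0.19. The intervals of the other 4 held 100%. They were 87.3 to 145% for SNHG12, 95.7 to 108% for SNHG7, 95.8 to 106% for SNHG15 and 86.9 to 112% for GAS5. No host was at least 2-fold from control, 0 higher where 0.195% of all entries were and 0 lower where 0.269% were.

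Between the siRNAs, ZFAS1 was at 73.3% in siRNA 1 cells relative to siRNA 2 cells (70.8 to 75.8%), a log2 ratio of -0.45. SNHG6 was at 77.0% (74.0 to 80.0%), SNHG7 at 82.3% (77.2 to 87.7%) and SNHG5 at 83.2% (81.8 to 84.7%). GAS5 was at 131% (117 to 148%) and SNHG12 at 127% (101 to 160%). SNHG16 was at 114% (110 to 118%) and SNHG8 at 105% (102 to 108%). The intervals of SNHG1, 97.7 to 116%, and SNHG15, 96.3 to 106%, held 100%. No host was 2-fold apart, 0 higher where 0.167% of all entries were and 0 lower where 0.185% were.

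**Figure D2:**
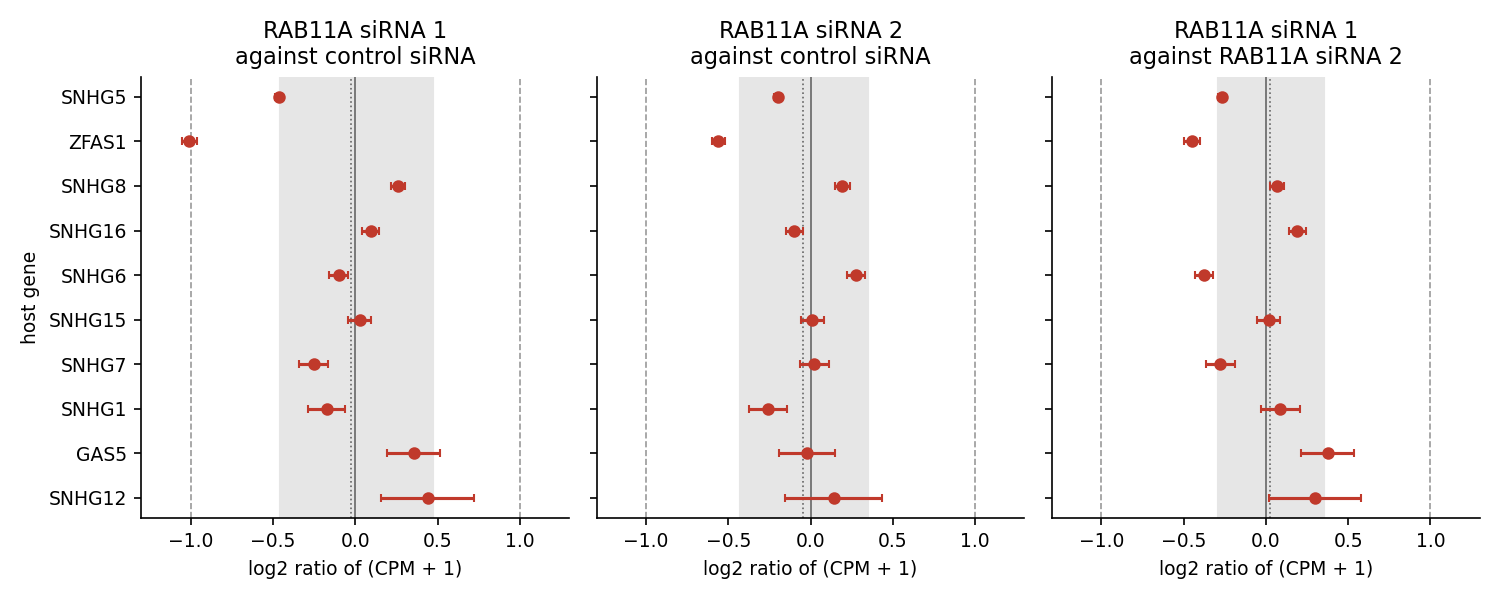
Log2 ratio of (CPM + 1) of each host gene for siRNA 1 against control, siRNA 2 against control and siRNA 1 against siRNA 2, with bars for the 95% counting interval. The grey band spans the 5th to 95th percentile of the 10788 entries, the dotted line is their median and dashed lines mark 2-fold; ZFAS1 is at -1.01, -0.56 and -0.45.

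The recovered tags of each pair of libraries were also compared by an exact two-sided binomial test with Benjamini-Hochberg adjustment over all entries, a test of the libraries rather than of the siRNAs. With the adjusted p threshold at 0.05, 4 hosts were called higher and 5 lower for siRNA 1 against control, where it called 23.3% and 29.1% of all entries. For siRNA 2 it called 2 hosts higher and 4 lower, where it called 18.4% and 29.9%. Between siRNA 1 and siRNA 2 it called 3 hosts higher and 4 lower, where it called 21.4% and 15.4%. A call by this test is thus common among all entries at this depth. With limma over both siRNA libraries against control, which leaves 1 residual degree of freedom, 7 entries had an adjusted p under 0.05, 2 higher (0.0185% of all entries) and 5 lower (0.0463%), and 0 were hosts. At an unadjusted p under 0.05 it called 0 hosts higher, where it called 5.52% of all entries, and 1 host lower, where it called 7.68%. That host was ZFAS1, with an average log2 difference of -0.79 (SE 0.20). The fit takes the siRNA libraries as replicates of 1 condition, and the 1 control library adds no spread. In limma the spread of each entry between the siRNAs is drawn toward a value pooled over all entries. The SEs and calls of the fit thus rest on that spread and on the pooled value. They do not measure the variation of control.

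ZFAS1, SNHG5 and SNHG1 were below control in both siRNA libraries, 3 of 10, where 44.5% of all entries were. SNHG8, SNHG12 and SNHG15 were above control in both, 3 of 10, where 31.4% of all entries were. The other 4, SNHG6, SNHG7, SNHG16 and GAS5, had opposite signs, and under both other scalings GAS5 with siRNA 2 lay above control, at a log2 ratio of 0.03. Both counts of 3 are near the shares over all entries, and the comparisons with control share the control library. The median log2 ratio of the 10 was -0.04 for siRNA 1 and 0.00 for siRNA 2, beside medians over all entries of -0.03 and -0.04. Without GAS5 the median for siRNA 1 was -0.10, and without ZFAS1 it was 0.03. The hosts thus stood on both sides of control, and their ratios with siRNA 1 spread with an SD of 0.43, beside 0.34 over all entries. That SD includes ZFAS1, which at -1.01 lay farthest from control, and the SD without it was not taken. With siRNA 2 the SD was 0.25, beside 0.31 over all entries.

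Sums over the hosts rested mostly on SNHG5 and ZFAS1, which were set apart with their values known. The 10 together gave 2249 CPM with siRNA 1, 2533 CPM with siRNA 2 and 2794 CPM in control, 80.5% (79.6 to 81.4%) and 90.7% (89.7 to 91.7%) of control. SNHG5 and ZFAS1 together gave 1176, 1452 and 1773 CPM with siRNA 1, siRNA 2 and control, 66.3% and 81.9% of control. The other 8 gave 1073, 1081 and 1021 CPM with siRNA 1, siRNA 2 and control, 105% and 106% of control. The sum of SNHG5 and ZFAS1 was thus lower than control, and that of the other 8 slightly higher. Among those 8, SNHG7, SNHG1 and SNHG6 were below control with siRNA 1 and SNHG1, SNHG16 and GAS5 with siRNA 2, and the rest were above. The share of SNHG5 and ZFAS1 in all host tags was 52.3% with siRNA 1, 57.3% with siRNA 2 and 63.5% in control.

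**Figure D3:**
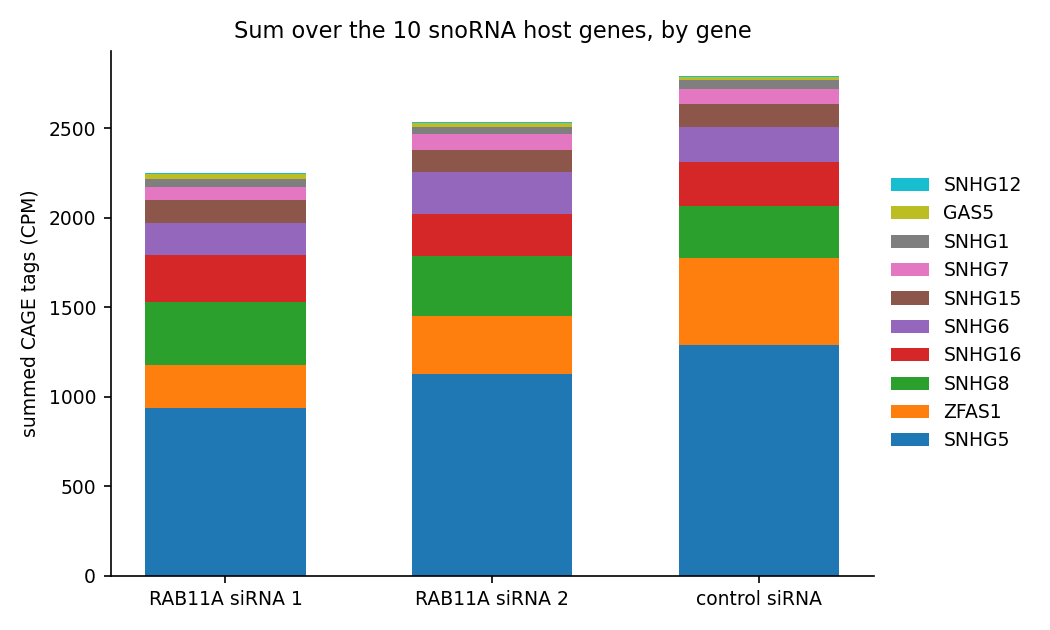
Summed CPM of the 10 host genes in the RAB11A siRNA 1, RAB11A siRNA 2 and control siRNA libraries, stacked by gene from 0. The sums are 2249, 2533 and 2794 CPM, and SNHG5 and ZFAS1 at the bottom of the stack make up 52.3%, 57.3% and 63.5% of them.

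The table also has entries for snoRNAs within the hosts, most of them with the same values as the host. Of the 36 snoRNAs, 14 were listed, in 15 entries since SNORD87 has a pair of them, and 9 entries had the value of the host in all 3 libraries. Those 9 lie in 6 hosts, for example SNORD25 to SNORD28 in SNHG1, SNORD74 in GAS5 and SNORD12C in ZFAS1. SNORD50A and SNORD50B in SNHG5 both stood at 404 CPM with siRNA 1, 486 CPM with siRNA 2 and 565 CPM in control, which is 43.1%, 43.1% and 43.8% of the SNHG5 values. SNORD22 and SNORD31 in SNHG1 both had 1, 1.28 and 1.6 CPM with siRNA 1, siRNA 2 and control, and SNORD87 in SNHG6 had 0.88, 0.96 and 1.2 CPM. These low entries rest on few tags.

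Some hosts share their start region with a gene on the other strand. SNHG1 starts 51 bases from SLC3A2, the heavy chain of amino acid transporters, which had 138 CPM with siRNA 1, 152 CPM with siRNA 2 and 173 CPM in control. Its log2 ratios were -0.33 (SE 0.033) and -0.19 (SE 0.032), beside -0.17 and -0.26 for SNHG1. ZFAS1 starts 248 bases from ZNFX1, a zinc finger helicase gene, and their spans share 249 bases. ZNFX1 had 8.36 CPM with siRNA 1, 8 CPM with siRNA 2 and 12.4 CPM in control, log2 ratios of -0.51 (SE 0.12) and -0.57 (SE 0.12), beside -1.01 and -0.56 for ZFAS1. All genes of both pairs were thus below control in both siRNA libraries, as were 44.5% of all entries. The table gives values by strand, and whether tags of a gene in such a pair entered its neighbour was not tested. RP11-666A8.8 next to SNHG16 and ZBTB37 next to GAS5 had at most 1.04 CPM.

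The same readouts were taken for genes related to the hosts by role, in lists that hold no host. Over all entries, 44.5% were below and 31.4% above control in both siRNA libraries, the shares to set beside each list. At least 2-fold higher and lower were 0.371% and 0.519% of all entries with siRNA 1 and 0.195% and 0.269% with siRNA 2. Of 29 other noncoding snoRNA hosts picked by symbol, 9 were in the table. Of those 9, 5 were below control in both siRNA libraries and 2 above. C17orf76-AS1, now SNHG29, had 410 CPM with siRNA 1, 521 CPM with siRNA 2 and 709 CPM in control, log2 ratios of -0.79 (SE 0.018) and -0.44 (SE 0.017). EPB41L4A-AS1 was at -0.72 and -0.41, and C6orf48, now SNHG32, at -0.60 and -0.27. SNHG3 was the opposite, with 243 CPM with siRNA 1, 203 CPM with siRNA 2 and 184 CPM in control, log2 ratios of 0.40 and 0.14. As in ZFAS1 and SNHG5, siRNA 2 lay between siRNA 1 and control in each of these, which were named for their large ratios, and in SNHG10. It did not in SNHG11, DANCR, LINC00338 and SNHG9. How many of all entries have siRNA 2 between was not counted. The medians of the 9 were -0.08 and -0.17. Protein-coding hosts outside the ribosomal proteins, found in the annotation, numbered 252 with enough tags. Of these, 74 (29.4%) were above and 112 (44.4%) below control in both siRNA libraries, near the shares over all entries. Their medians were -0.03 and -0.06. Hosts that are not protein-coding, found in the annotation in the same way, numbered 23 with enough tags, some of the 9 among them. Of these, 7 (30.4%) were above and 10 (43.5%) below control in both siRNA libraries, also near the shares over all entries. The medians of the 23 were -0.07 and -0.04, and 1 was at least 2-fold lower with siRNA 2.

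Genes for the proteins that snoRNAs join stood on both sides of control. Of 8 core snoRNP proteins, 3 were above and 4 below control in both siRNA libraries, where 31.4% and 44.5% of all entries were. Their medians were -0.04 and -0.01. The pseudouridylation protein GAR1 had 135 CPM with siRNA 1, 125 CPM with siRNA 2 and 105 CPM in control, log2 ratios of 0.37 and 0.26. FBL, the methyltransferase of box C/D snoRNPs, was at -0.21 and -0.18, and NOP56, its partner, at -0.26 and -0.15. Of 13 assembly factors, 6 were above and 4 below control in both, with medians of 0.12 and -0.01. Of 26 ribosome biogenesis genes, 4 were above and 13 below, with medians of -0.04 and -0.05. None of these 3 lists held a gene at least 2-fold from control, where at most 0.519% of all entries were in either direction.

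Of genes that share the TOP start, ribosomal protein genes stood on both sides of control and translation factors mostly below it. Of 79 ribosomal protein genes, 25 (31.6%) were above and 34 (43.0%) below control in both siRNA libraries, near the 31.4% and 44.5% of all entries. Their medians were -0.07 and 0.04, and 0 genes were at least 2-fold apart, where at most 0.519% of all entries were in either direction. RPS6 stood at 1024 CPM with siRNA 1, 972 CPM with siRNA 2 and 636 CPM in control, log2 ratios of 0.69 and 0.61. Of 19 translation factors and related TOP genes, 15 were below and 1 was above control in both, with medians of -0.27 and -0.28 and 0 genes at least 2-fold apart. EEF1A1, the elongation factor that brings aminoacyl-tRNA to the ribosome, had 902, 777 and 1209 CPM with siRNA 1, siRNA 2 and control, log2 ratios of -0.42 and -0.64. Of 20 mTORC1 inputs and TOP regulators, 7 were above and 9 below, with medians of -0.09 and -0.07. DDIT4 and SESN2, stress-induced inhibitors of mTORC1, were at -0.98 and -0.82 and at -1.12 and -0.68, and SESN2 was the only gene of that list at least 2-fold lower with siRNA 1. RHEB, the GTPase that activates mTORC1, named here after its values were seen, had 61.4 CPM with siRNA 1, 240 CPM with siRNA 2 and 87.2 CPM in control. Its log2 ratios of -0.50 and 1.45 had opposite signs, and it was the only gene of the list at least 2-fold higher with siRNA 2.

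Transcripts known as NMD targets were mostly below control. Of 12, 10 were below and 1 was above control in both siRNA libraries, where 44.5% of all entries were below and 31.4% above. Their medians were -0.32 for siRNA 1 and -0.28 for siRNA 2, beside -0.04 and 0.00 for the hosts. UPP1, uridine phosphorylase, had 170 CPM with siRNA 1, 201 CPM with siRNA 2 and 451 CPM in control, log2 ratios of -1.41 and -1.16. DDIT3, a stress transcription factor, was at -1.02 and -0.82. These 2 were at least 2-fold lower with siRNA 1, and UPP1 was also with siRNA 2. Several members of that list, among them ASNS, CARS and ATF4, are also genes of the amino acid response. Of 14 NMD factors, 2 were above and 7 below control in both, with medians of -0.13 and -0.07 and 0 genes at least 2-fold apart. The kinase SMG1, which phosphorylates UPF1, had 13.8, 17.6 and 21.8 CPM with siRNA 1, siRNA 2 and control, log2 ratios of -0.62 and -0.30. SMG1 thus had the same order of libraries as ZFAS1 and SNHG5.

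**Figure D4:**
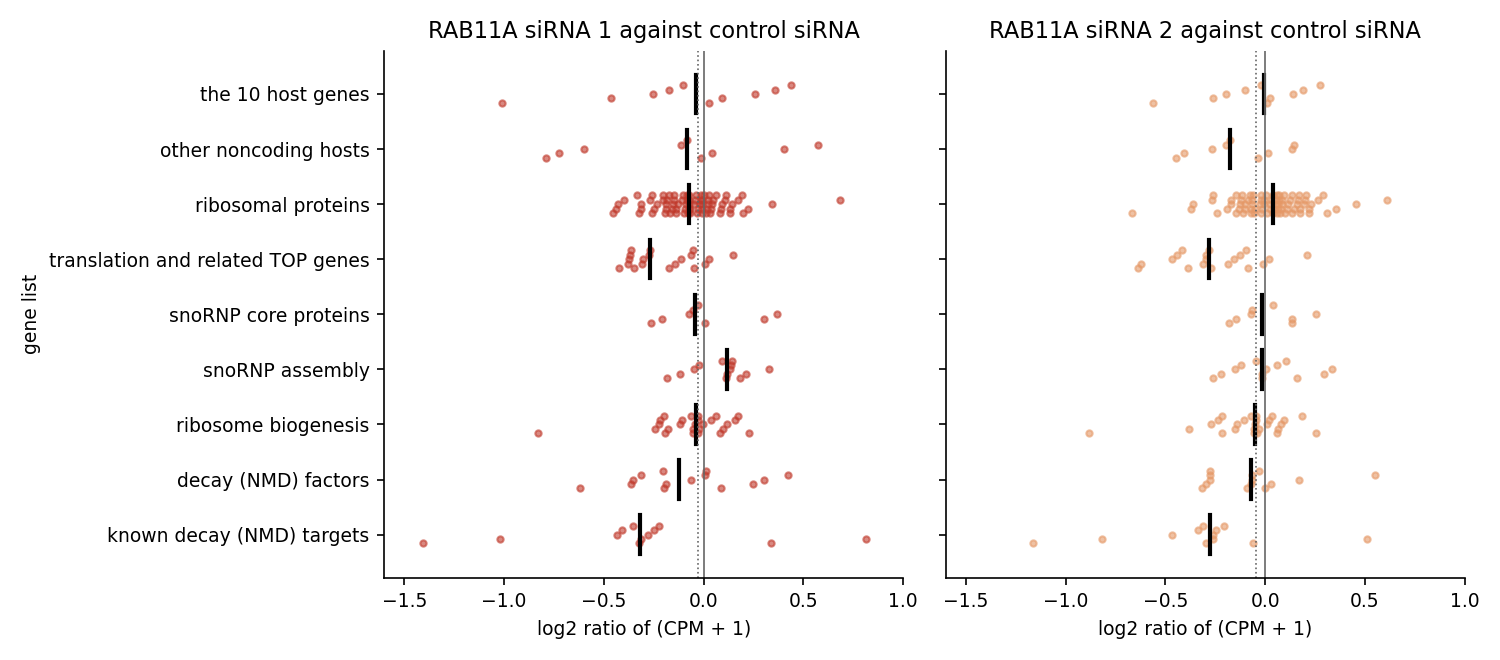
Log2 ratio of (CPM + 1) to control for siRNA 1 (left) and siRNA 2 (right), 1 point a gene, for the 10 hosts and 8 related lists; black bars are list medians and the dotted line is the median of all 10788 entries. The hosts have medians of -0.04 and 0.00, while known NMD targets have medians of -0.32 and -0.28 and the translation and related TOP genes -0.27 and -0.28.

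The entries whose pair of ratios to control lay nearest to the pair of host medians were GOLM1, RAB10, ADPRHL1, RP11-21N3.1 and SLC25A16, over the 3 libraries. Of 10778 other entries, 10635 were at least as near to those medians as ZFAS1, the farthest host. These other entries include copies of host values, such as SNORD12C with those of ZFAS1.

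RAB11A, the siRNA target, had 7.48 CPM with siRNA 1, 22.7 CPM with siRNA 2 and 135 CPM in control, 5.53% and 16.8% of control. Of 9 squamous markers, 3 were in the table, SFN, PERP and S100A2, at 196, 186 and 197 CPM summed over siRNA 1, siRNA 2 and control. TP63, KRT5, KRT14, KRT6A, DSG3 and SOX2 were not among the listed genes. Of 5 epithelial markers, 4 were listed and summed to 1013, 878 and 828 CPM, and of 4 alveolar markers 0 were listed. Of 6 leukocyte, fibroblast and endothelial markers, 3 were listed, and CD68 among them had 21.1 CPM with siRNA 1, 31.4 CPM with siRNA 2 and 45.2 CPM in control, the same order as ZFAS1 and SNHG5. COL1A1 and COL1A2 had at most 2.28 CPM and did not have that order, and PTPRC, PECAM1 and VWF were not listed. How many of all entries have that order was not counted. The part of these markers in the host values was not tested. The steps between values put 1 tag at 0.04 CPM in each library.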

How the data were processed

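CAGE was run on 3 libraries of total RNA, 1 per siRNA. The authors deposited CPM per gene and strand, 1 column a library, matched to the labels by name. The submitters' processing notes name hg19, BWA and HISAT2. No source used here gives what each did, its version, how tags were counted, which annotation was used or what was done with reads of several matches. Deposited CPM values were whole multiples of 0.04 within 0.005 CPM for 100% of values in each siRNA library and 99.99% in control, so whole tags were recovered. The step implies a scaling total of 24999950 tags per library. Recovered tags summed over entries came to 25204585, 25137457 and 25174787 for siRNA 1, siRNA 2 and control, above that total. Some entries repeat the values of another, as 9 snoRNA entries do those of their host, so the sum holds such values more than once. Their part in the excess was not tested. The shares over all entries include such copies. A count of 0 tags allows up to 0.12 CPM, and 5 CPM rests on 125 tags, for counting error only.

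The measure was log2 of (CPM + 1) between libraries, over entries with a mean of at least 5 CPM, with Poisson counting SEs and exact Clopper-Pearson intervals of the ratio of tags. A pseudocount understates the ratio of low genes. Called means at least 2-fold. The binomial test (scipy 1.17.1) and TMM (edgeR 4.0.16) on the recovered tags, and limma 3.58.1 on log2 of (CPM + 1), were alternatives. The 2-fold call, limma and a binomial test run in R were tried on simulated tags. The TMM and median of ratios scalings were not. Python 3.11.15, pandas 2.3.3, numpy 2.4.6, matplotlib 3.10.9 and R 4.3.3 were used.

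The hosts and lists were chosen with earlier results of these data known. All 10 hosts were named, with up to 4 genes of each list that had a mean of at least 10 CPM and the largest smaller ratio of the same sign in both comparisons with control, neighbours starting within 1000 bases on the other strand, and RAB11A. ATF4 and the markers are named besides. Promoter sequences are RefSeq's. SnoRNAs were placed in hosts from RefSeq gene positions without regard to strand, since the GENCODE rule found snoRNAs in 4 of the 10 hosts. Of the table's identifiers, 97.7% were found in GENCODE.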

Additional observations from a re-analysis of the deposited data

Results flagged for a closer look

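SNHG6 and SNHG16 stood on opposite sides of control in the siRNA libraries, each beyond its counting interval. SNHG6 was at 93.2% of control with siRNA 1 (89.4 to 97.0%) and at 121% with siRNA 2 (116 to 126%), a log2 difference between siRNA 1 and siRNA 2 of -0.38. SNHG16 was at 107% of control with siRNA 1 (103 to 110%) and at 93.4% with siRNA 2 (90.1 to 96.8%), a log2 difference of 0.19. Under TMM and median of ratios scaling, SNHG16 with siRNA 2 was at -0.05 relative to control and its interval held 0. Each group has 1 library, so the difference between the siRNAs was not tested over replicates.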

How the results depend on the processing

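The 1 host at least 2-fold lower with siRNA 1 than control, ZFAS1, did not reach that threshold with a pseudocount of 5 CPM, TMM scaling or median of ratios scaling, which each left 0 hosts. The binomial test of tags, whose threshold is no fold, called 4 hosts higher and 5 lower for siRNA 1 against control. For siRNA 2 against control it called 2 higher and 4 lower, and for siRNA 1 against siRNA 2 it called 3 higher and 4 lower. The median log2 ratio of the hosts with siRNA 1 was -0.10 with a mean of at least 20 CPM, which drops SNHG12, or without GAS5, and 0.026 without ZFAS1. Leaving out GAS5 or ZFAS1 was chosen after seeing the data. Of 120 alternative log2 ratios of single hosts, 112 stayed within the counting interval, and the largest change was 0.16. The 8 that moved beyond it were ratios to control under TMM and median of ratios scaling. With siRNA 1, SNHG5 went from -0.46 to -0.43. With siRNA 2, SNHG5 went from -0.20 to -0.15, ZFAS1 from -0.56 to -0.51 and SNHG8 from 0.19 to 0.24. The sign differed in 4 of the 120, GAS5 for siRNA 2 against control, 0.03 under both scalings, and SNHG15 for siRNA 1 against siRNA 2, -0.01 under both. Over all entries, the 40 higher and 56 lower with siRNA 1 became 18 and 33 at a mean of at least 20 CPM, 20 and 30 with a pseudocount of 5 CPM and 303 and 276 at 1.5-fold. Without a filter 95 were lower. With siRNA 2 the 21 higher and 29 lower became 8 and 13 at a mean of at least 20 CPM and 134 and 200 at 1.5-fold, and 54 were lower without a filter. Between the siRNAs the 18 higher and 20 lower became 6 and 5 at a mean of at least 20 CPM and 97 and 75 at 1.5-fold. No host shared its symbol with a second entry, so summing such entries changed nothing. No paired analysis was possible because each group has 1 library. Among the log2 ratios whose interval lay off 0, that of SNHG16 for siRNA 2 against control had an interval holding 0 under both scalings. SNHG12 rests on 121 to 173 tags a library, and the other hosts on more.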
